A study of Homo sapiens with 18 samples.

Results

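The core machinery of autophagy and its cargo receptors were followed as 35 genes, taken by symbol for their known role, out of 25435 rows of the count table. They fall into 6 role groups: the ULK complex, the class III PI3K complex and its regulators, the ATG9, ATG2 and WIPI proteins, the conjugation enzymes, the ATG8 proteins, and the cargo receptors. All 35 had a row, and all 35 passed the filter on low counts in each of the 9 comparisons, with between 52 and 5735 reads per library.

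RNA-Seq was carried out on HEK293doxERN2 cells, a human embryonic kidney line with a doxycycline-inducible, FLAG-tagged transgene of ERN2, the ER stress sensor also called IRE1β. Cells were left without doxycycline (no ERN2) or had 10 ng/mL (low ERN2) or 100 ng/mL (high ERN2) of it over 24 hours, and at each dose cells received either DMSO vehicle (control) or 200 nM thapsigargin (stress), a blocker of the ER calcium pump, for 3 hours. Each of the 6 groups had 3 libraries, and the labels do not say whether they came from separate cultures, so p-values measure the spread between these libraries, which may be technical. All groups carry the transgene, so doxycycline and ERN2 cannot be told apart here.

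Autophagy encloses cytoplasm in a double membrane and delivers it to lysosomes. The ULK kinase complex starts the process, a class III PI3 kinase built around BECN1 marks the membrane with its lipid product, and ATG9 vesicles, ATG2 lipid channels and WIPI proteins let the membrane grow. Conjugation enzymes attach ATG8 proteins (the LC3 and GABARAP families) to the membrane, where cargo receptors such as p62 (SQSTM1) bind them. Transcription of several of these genes is known to respond to ER stress and to starvation.

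Library totals ran from 14876416 to 24652240 counted reads. ERN2 was at 6.66 to 9.26 CPM (reads scaled to library size, with TMM factors) in uninduced control libraries. Control libraries had 23 to 56.8 at low and 244 to 308 at high dose. Stressed libraries had 10.5 to 14.4 without doxycycline, 32.3 to 111 at low and 167 to 268 at high dose. The 268 CPM were in High ERN2, stress replicate 1. Of 8 genes known to respond to thapsigargin, 8, 8 and 3 passed an adjusted p of 0.01 as higher with no, low and high ERN2, and in all 3 comparisons the libraries of the groups did not overlap for any of the 8. The 5 markers reported for HEK293 cells summed to between 1540 and 2590 CPM, most of it from VIM, with 24676 to 57580 reads per library. NEFM had 312 to 671 reads, NEFL 1016 to 2596, INA 1231 to 3135 and PAX2 17 to 89. The labels' extraction text speaks of colon crypt cells, but 7 of 8 colon markers had 0 to 9 reads per library, and the eighth, CDX2, had 56 to 161. No pair of replicates was as alike as sampling alone would leave it. The library that lay farthest from its mates was High ERN2, stress replicate 1, with a median absolute log2 difference of 0.341 from their mean, and more genes passed without it than without any other library in each comparison it entered. The same held for Low ERN2, control replicate 1, at 0.254, in the comparison with uninduced control cells. Member calls that change without them are given both ways, and neither way is taken as the cleaner one. The base composition of these libraries and of their mates is given below.

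The promoters of the 2 genes that rose with thapsigargin in uninduced cells are shown first. Whether the rise came from transcription or from RNA stability was not tested, nor which start these cells use. Each window runs from 250 bases before to 50 bases after the RefSeq start on GRCh38.p14, 5′ to 3′ along the gene. Capitals mark a CRE (TGACGTCA) or a CCAAT box (CCAAT), found on either strand. The first window is chr17:68457447-68457746 on the minus strand and the second chr12:10212627-10212926 on the plus strand.
WIPI1: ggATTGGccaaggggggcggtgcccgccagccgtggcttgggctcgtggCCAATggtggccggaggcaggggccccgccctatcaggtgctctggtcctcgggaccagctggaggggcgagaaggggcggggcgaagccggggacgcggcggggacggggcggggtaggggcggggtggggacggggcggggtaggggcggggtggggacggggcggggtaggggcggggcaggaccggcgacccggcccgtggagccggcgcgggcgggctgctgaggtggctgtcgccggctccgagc
GABARAPL1: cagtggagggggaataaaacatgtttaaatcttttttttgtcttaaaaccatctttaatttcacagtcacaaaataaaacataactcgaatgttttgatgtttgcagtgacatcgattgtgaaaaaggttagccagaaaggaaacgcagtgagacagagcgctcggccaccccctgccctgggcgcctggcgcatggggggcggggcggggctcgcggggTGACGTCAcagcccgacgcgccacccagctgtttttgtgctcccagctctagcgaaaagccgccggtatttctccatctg
The CRE, a palindrome bound by CREB and ATF family factors, lies 30 to 23 bases before the start of GABARAPL1. Among 27305 promoter windows 1.98% held it, and GABARAPL1 was the only one of the 31 members with a window that did. WIPI1 held 2 CCAAT boxes, a motif found in 35.7% of all windows and in 11 of the 31. Its window was richer in G and C (79.7%, against 51.7% in GABARAPL1 and a median of 64.7% over the members). The C/EBP-ATF motif (TGATGNAA) was found in 3.67% of windows and in 0 of the members', the E-box (CACGTG) in 7.43% of windows and in those of ATG14 and ATG3, and the ERSE, the ER stress element, in 0.0806% of windows and in 0 of the members'. These matches describe the letters in the windows and not sites in use. ATG4D, UVRAG, RB1CC1 and MAP1LC3A had no entry.

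In uninduced control cells the 35 genes were spread over a wide range of levels, here CPM per kb of exon. The length covers all annotated exons of a gene, from 1762 bases in MAP1LC3A to 15198 in PIK3C3. It can exceed that of the mRNA in use, so the order of genes is approximate. GABARAP, an ATG8 protein, was the highest at 71.4 ± 4.00 (SD, n = 3 libraries). The next were 2 further ATG8 genes, MAP1LC3B at 24.5 ± 2.38 (SD, n = 3) and GABARAPL2 at 24.4 ± 1.08 (SD, n = 3), followed by the ULK complex subunit ATG13 at 23.2 ± 1.66 (SD, n = 3). These 3 did not differ beyond their spread. The cargo receptors NBR1 and SQSTM1, at 20.4 ± 1.34 and 19.1 ± 1.19 (SD, n = 3), lay above OPTN and TAX1BP1, at 14.1 ± 1.25 and 13.0 ± 2.43 (SD, n = 3). At the lower end were WIPI1, a reader of the PI3 kinase lipid, at 4.08 ± 0.322, the E1-like enzyme ATG7 at 1.87 ± 0.0228, the E2-like enzyme ATG10 at 1.39 ± 0.0644, and ATG16L2 at 0.473 ± 0.118 (SD, n = 3 each). Its paralog ATG16L1 was at 5.72 ± 0.797 (SD, n = 3). The near-identical copies MAP1LC3B2 and GABARAPL3 had 7 to 23 and 0 to 3 reads per library, against 1537 to 3054 for MAP1LC3B, although counting could have split reads between such copies.

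**Figure D1:**
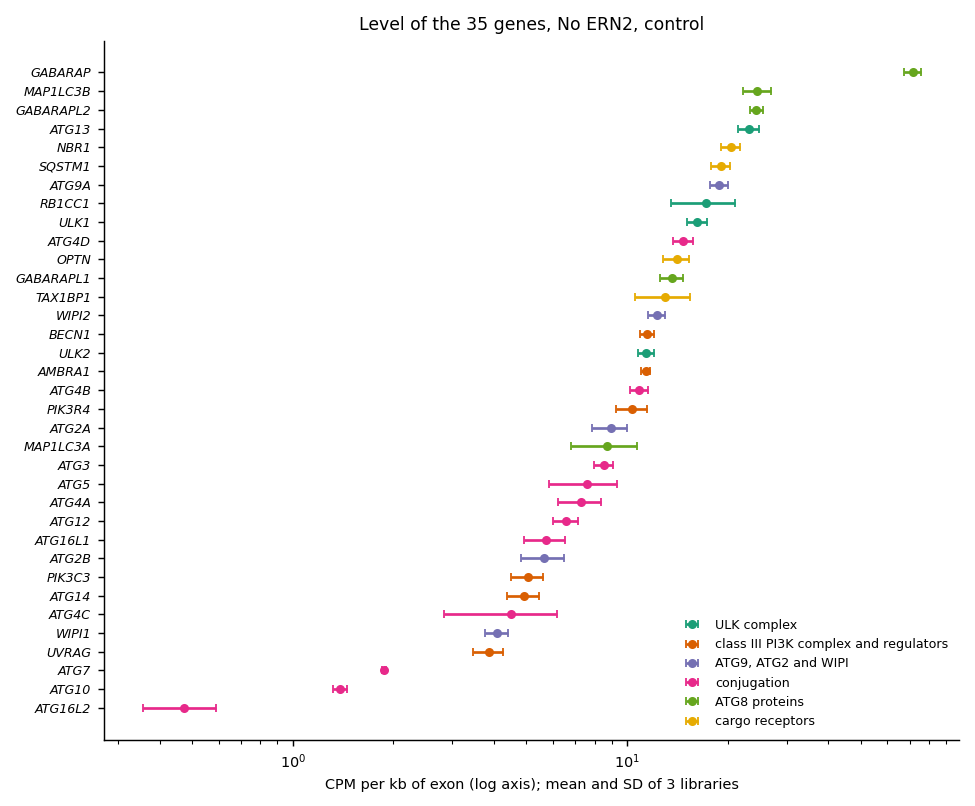
Levels of the 35 autophagy genes in uninduced control cells in CPM per kb of exon on a log axis, with points for the mean and bars for the SD of 3 libraries, coloured by role. GABARAP stands alone at 71.4 and ATG16L2 is lowest at 0.473, and the 3 lowest are conjugation genes.

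In uninduced cells, 3 hours of thapsigargin raised 2 of the 35 genes and lowered 0 at an adjusted p below 0.01 in edgeR's quasi-likelihood test, where 11.2% of all genes tested passed. The 2 were WIPI1 and GABARAPL1, an ATG8 protein of the GABARAP family. In bulk RNA, a change in every cell and a change in the share of cells that express a gene cannot be told apart. WIPI1 (ENSG00000070540.12, chr17:68420948-68457513, minus strand, GENCODE 29 on GRCh38) stood at 15.0, 12.8 and 13.8 CPM in replicates 1, 2 and 3 of the control cells and at 42.8, 68.5 and 31.5 CPM in those of the stressed cells. The lowest stressed library was above the highest control library, but the stressed libraries themselves differed widely. The increase was 3.47-fold, a log2 fold change of 1.79 (SE 0.228, adjusted p = 0.000162, higher in 3 of 3 libraries), and it passed under all 14 alternatives, with 1.43 without stress replicate 2 and 2.02 without stress replicate 3. WIPI1 shares 828 exon bases with ARSG on the other strand, and whether reads were counted by strand is not given in the sources used here. ARSG itself was at 5.39 to 7.84 CPM in control and 7.27 to 8.26 in stressed cells (log2 fold change 0.24, adjusted p = 0.361).

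GABARAPL1 (ENSG00000139112.10, chr12:10212458-10223130, plus strand) was at 60.5, 51.7 and 54.5 CPM in the control libraries and 84.1, 80.9 and 76.4 CPM in the stressed ones, so that the groups lay apart with little spread within each. Its increase was 1.46-fold, with a log2 fold change of 0.55 (SE 0.11, adjusted p = 0.00379, edgeR). It passed in each of the 8 alternatives that kept all libraries and in the fit without stress replicate 3 (adjusted p = 0.00116). Without control replicate 1, 2 or 3 the adjusted p was 0.0109, 0.014 and 0.0182, and without stress replicate 1 or 2 it was 0.0195 and 0.013, with log2 fold changes between 0.50 and 0.61. An opposite-strand transcript, AC115676.1, shares 329 exon bases with it.

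The other ATG8 genes had values below 0, none of them past the threshold. GABARAP was at 172, 157 and 156 CPM in control and 125, 134 and 111 CPM in stressed libraries (log2 fold change -0.38, adjusted p = 0.0218), GABARAPL2 had -0.36 (adjusted p = 0.0322) and MAP1LC3B -0.33 (adjusted p = 0.0696). In all 3 the groups did not overlap. With the replicate number as a block these 3 did pass, and 10 members in all, among 3583 genes. GABARAP also passed as lower with DESeq2 and with a trend on GC content removed. MAP1LC3A, at 15.4 ± 3.43 CPM (SD, n = 3) in control and 15.1 ± 2.31 in stressed cells, had a log2 fold change of -0.014. Among the other groups the highest values below the threshold were those of UVRAG, a partner of BECN1 in the PI3 kinase complex (0.47, adjusted p = 0.0155), and ATG13 (0.35, adjusted p = 0.0523), and the lowest was that of ATG4A, a protease that trims ATG8 proteins (-0.77, adjusted p = 0.0166), which passed without stress replicate 2. ATG4A also passed with DESeq2, with no filter, and with the block or GC correction, and UVRAG with DESeq2, the block or the GC correction. The 4 cargo receptors ran from -0.33 (TAX1BP1) to 0.23 (OPTN) and the 4 genes of the ULK complex from -0.27 (ULK1) to 0.35 (ATG13), with 0 past the threshold in either group. Libraries of the groups did not overlap for 5 higher and 9 lower members, 14 of 35 in all, where 40.0% of all genes tested did not overlap. The median log2 fold change of the members was -0.067 and its median size 0.19, beside -0.0066 and 0.25 for all genes.

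**Figure D2:**
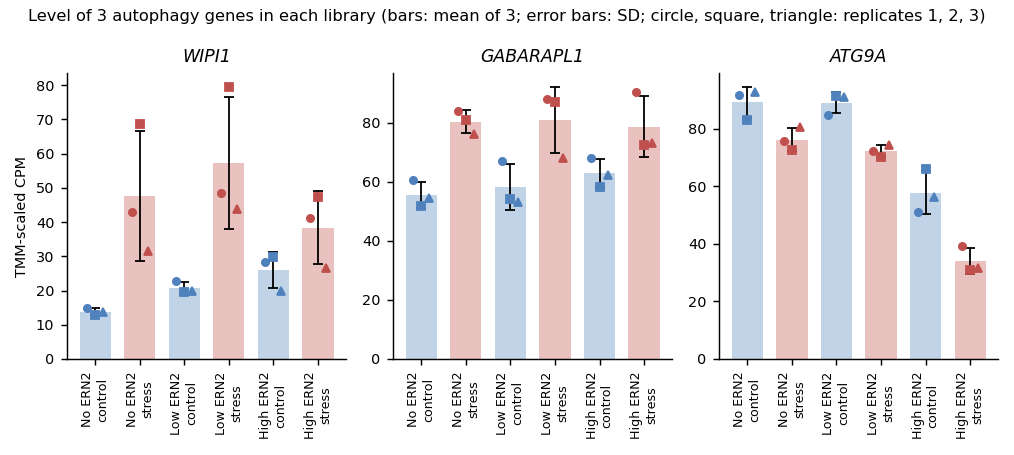
TMM-scaled CPM of WIPI1, GABARAPL1 and ATG9A in all 18 libraries by group, with blue for vehicle and red for thapsigargin, bars for the mean and error bars for the SD of 3 libraries. WIPI1 rises from between 12.8 and 15.0 CPM to between 31.5 and 68.5 CPM with thapsigargin in uninduced cells, and ATG9A is lowest at high ERN2 with stress, between 31.02 and 39.4 CPM.

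With low ERN2, thapsigargin raised WIPI1 and no other member in edgeR's test, where 1.45% of all genes passed. WIPI1 was at 22.8, 19.6 and 19.97 CPM in control and 48.5, 79.5 and 43.9 CPM in stressed libraries, again without overlap, with a log2 fold change of 1.47 (SE 0.211, adjusted p = 0.00435). As in uninduced cells, replicate 2 was the highest and replicate 3 the lowest of the stressed libraries. The call was lost without control replicate 2 (adjusted p = 0.0535), control replicate 3 (0.0129) or stress replicate 2 (0.0102), and kept without Low ERN2, control replicate 1 (log2 fold change 1.52, adjusted p = 0.00536). GABARAPL1 stood at 67.2, 54.1 and 53.3 CPM against 88.0, 87.0 and 68.2 CPM (log2 fold change 0.48, adjusted p = 0.0698), and UVRAG had 0.52 (adjusted p = 0.0496). With the replicate block 9 members passed among 3600 genes. GABARAPL1, UVRAG, WIPI1 and RB1CC1 were higher, and ATG9A, ATG2A, WIPI2, ULK1 and GABARAPL2 lower. UVRAG also passed as higher with DESeq2.

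With high ERN2, thapsigargin gave 0 calls among the members, where 0.201% of all genes passed. At an unadjusted p under 0.05, 6 members were higher and 2 lower, where 27% of all genes had such a p. DESeq2 called 1, ATG9A, as lower. ATG9A also passed as lower with a trend on GC content removed and, beside WIPI2, with all 6 groups in 1 fit. ATG9A was at 51.2, 66.1 and 56.2 CPM in control and 39.4, 31.02 and 31.8 CPM in stressed libraries. These did not overlap (log2 fold change -0.72, not past the threshold in edgeR's test). WIPI1 was at 28.2, 29.7 and 20 CPM in control and 41.2, 47.3 and 26.5 CPM in stressed libraries, so the groups overlapped (log2 fold change 0.61, adjusted p = 0.138, edgeR). GABARAPL1 was at 68.2, 58.4 and 62.5 against 90.6, 72.4 and 73.1 CPM (log2 fold change 0.36, adjusted p = 0.152). This comparison rests on High ERN2, stress replicate 1. Without it WIPI1 had 0.54 (adjusted p = 0.0694) and GABARAPL1 0.24 (adjusted p = 0.222), and 7 members passed, with the kinase complex scaffold RB1CC1 (log2 fold change 0.83), the receptor TAX1BP1 (0.88) and the proteases ATG4A (0.70) and ATG4C (0.87) higher, and ATG9A (-0.84), WIPI2 (-0.68) and ULK1 (-0.70) lower, while the count over all genes went from 29 to 2568.

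The difference of the thapsigargin responses between doses was tested as an interaction. At low ERN2 it called 0 members, and 0% of all genes tested passed. At an unadjusted p under 0.05 there were 0 members too, DESeq2 called 0, and WIPI1 had -0.32 (SE 0.354, adjusted p = 0.807). At high ERN2 it called 0 members, where 0.0406% of all genes passed, with 8 higher and 2 lower at an unadjusted p under 0.05, a cut that 24.7% of all genes met, and 0 called by DESeq2. The response of WIPI1 differed by -1.11 (SE 0.38, adjusted p = 0.109) and that of GABARAPL1 by -0.10 (SE 0.171, adjusted p = 0.742). So the smaller rise of WIPI1 at high dose was not shown to differ from that in uninduced cells. Without High ERN2, stress replicate 1 the interaction of WIPI1 was -1.20 (adjusted p = 0.0316), and TAX1BP1 (1.27), MAP1LC3B (0.80) and ATG4A (1.52) passed. The interactions share the uninduced libraries with the comparisons at each dose.

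In control cells, high ERN2 raised WIPI1 and lowered ATG9A, the only transmembrane protein of the core machinery, with 8.33% of all genes past the threshold. WIPI1 was at 28.2, 29.7 and 20 CPM against 15.0, 12.8 and 13.8 CPM in uninduced libraries, all 3 above the highest of these. Its log2 fold change was 0.91 (SE 0.164, adjusted p = 0.00206, edgeR), a 1.88-fold increase that passed in 6 of 6 fits leaving out a library. With the replicate block the adjusted p was 0.0117, and in a fit of all 6 groups 0.0347. ATG9A (ENSG00000198925.11, chr2:219219380-219229717, minus strand) was at 51.2, 66.1 and 56.2 CPM against 91.8, 83.1 and 92.8 CPM, again without overlap. Its log2 fold change was -0.62 (SE 0.122, adjusted p = 0.00366), and the adjusted p was 0.0305 with the replicate block, 0.0205 and 0.0165 without uninduced replicate 1 or 3, and 0.0183 without High ERN2, control replicate 3. A same-strand transcript, AC068946.2, which has no row in the table, shares 1833 exon bases with ATG9A.

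Of the remaining 33 members, the highest values at high ERN2 in control cells belonged to ATG16L2 (0.62, adjusted p = 0.0679), MAP1LC3A (0.52, adjusted p = 0.128), ATG2A (0.40, adjusted p = 0.0922) and ATG13 (0.37, adjusted p = 0.028), and the lowest to TAX1BP1 (-0.39, adjusted p = 0.121) and ATG4C (-0.36, adjusted p = 0.306). The libraries did not overlap for 8 higher and 2 lower members, where 33.1% of all genes tested did not overlap. Over the members the median log2 fold change was 0.076 with a median size of 0.21, beside -0.0068 and 0.22 over all genes. Among all genes called, 121 were higher and 1082 lower.

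In stressed cells, high ERN2 lowered ATG9A and called no other member, where 10.5% of all genes passed. ATG9A was at 39.4, 31.02 and 31.8 CPM against 75.7, 72.5 and 80.6 CPM, well apart, with a log2 fold change of -1.10 (SE 0.151, adjusted p = 0.000255), or 0.467 of the uninduced level. It passed under all 14 alternatives, with log2 fold changes from -1.19 to -0.91. The stressed cells at high ERN2 thus held the lowest ATG9A level of the 6 groups, 34.1 ± 4.66 CPM (SD, n = 3), next to 57.8 ± 7.60 in control cells of that dose, 72.2 ± 2.15 and 76.3 ± 4.10 in stressed cells with low and no ERN2, and 89.1 ± 3.58 and 89.2 ± 5.36 in the control cells of those doses (SD, n = 3 each). The difference between the responses to thapsigargin at high and no ERN2 was -0.42 for ATG9A (SE 0.167, adjusted p = 0.147), and -0.58 (adjusted p = 0.0225) without High ERN2, stress replicate 1.

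WIPI2, a paralog of WIPI1 that brings the conjugation complex to the membrane, was at 75.9, 60.1 and 60.9 CPM at high ERN2 with stress against 97.2, 92.4 and 104 CPM (log2 fold change -0.51, adjusted p = 0.0254). MAP1LC3B stood at 123, 170 and 151 CPM against 101, 118 and 88.7 CPM (0.59, adjusted p = 0.0289), and ATG4A had 1.02 (adjusted p = 0.02). All 3 missed the threshold with all libraries in edgeR's test, while DESeq2 called all 3. WIPI1 had -0.26 (adjusted p = 0.55), and GABARAPL1 was close to 0 at 0.028 (adjusted p = 0.914). Without High ERN2, stress replicate 1, 7 members passed, ATG9A (-1.19) and WIPI2 (-0.61) lower, and ATG4A (1.26), TAX1BP1 (0.89), ATG4C (0.77), RB1CC1 (0.74) and MAP1LC3B (0.73) higher, and 3950 genes in all in place of 1512. Libraries did not overlap for 5 higher and 4 lower members, where 35.6% of all genes tested did not. The members' median was 0.22, against 0.044 for all genes, with a median size of 0.28 against 0.32. These values share the uninduced stressed libraries with the thapsigargin response of uninduced cells.

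**Figure D3:**
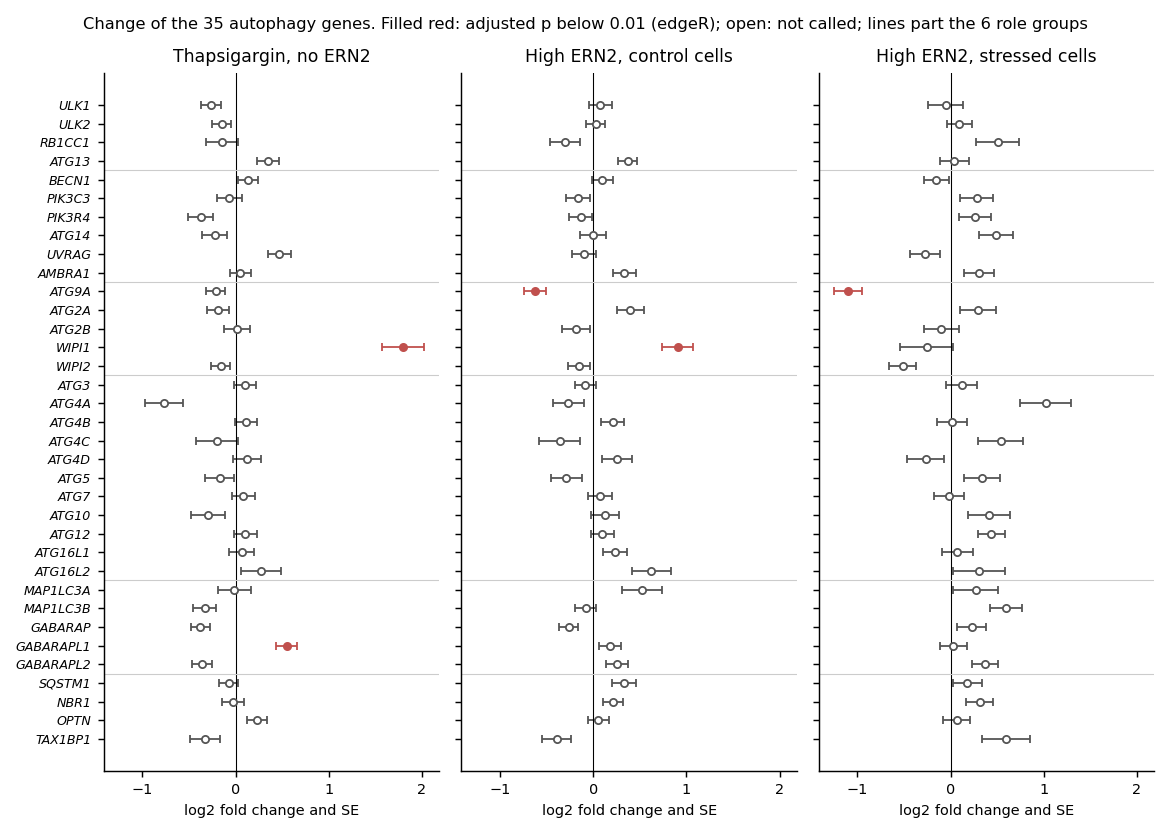
Log2 fold changes with SE of the 35 genes in 3 comparisons, with filled red points for an adjusted p below 0.01 in edgeR's test and grey lines between role groups. WIPI1 (1.79) and GABARAPL1 (0.55) are filled for thapsigargin, WIPI1 (0.91) and ATG9A (-0.62) for high ERN2 in control cells, and ATG9A (-1.10) for high ERN2 in stressed cells.

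Low ERN2 in control cells gave 0 calls among the members, where 0.193% of all genes passed. At an unadjusted p under 0.05, 10 members were higher and 7 lower, where 30.5% of all genes had such a p, and DESeq2 called 1, WIPI1. WIPI1 was at 22.8, 19.6 and 19.97 CPM, above the highest uninduced library at 15.0, with a log2 fold change of 0.58 (SE 0.139, adjusted p = 0.0713, edgeR). SQSTM1 was at 162, 196 and 193 CPM against 156, 140 and 142 CPM (0.33, adjusted p = 0.0878), and TAX1BP1 at 103, 69.0 and 68.5 against 103, 145 and 110 CPM (-0.57, adjusted p = 0.0825). In both, Low ERN2, control replicate 1 lay closest to the uninduced cells. Without that library 8 members passed, SQSTM1 (0.41), ATG2A (0.58) and ATG4D (0.54) higher and TAX1BP1 (-0.79), ATG4A (-0.77), RB1CC1 (-0.74), ATG5 (-0.66) and PIK3C3 (-0.56) lower, and the count over all genes rose from 28 to 2743. In stressed cells low ERN2 called 0 members, and 0% of all genes passed. There, 0 members reached an unadjusted p under 0.05, DESeq2 called 0, and the members ran from -0.17 to 0.32. With the replicate block, which applies in that comparison, 544 genes passed and 0 members.

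The 7 members listed as readout genes were WIPI1, GABARAPL1, SQSTM1, MAP1LC3B, ULK1, BECN1 and ATG12. The lists were chosen with earlier results of these data known. Of these, 5 passed in none of the 9 comparisons with all libraries in edgeR's test, although SQSTM1, MAP1LC3B and ULK1 did under some alternatives. The values are mRNA levels, and autophagy itself was not measured. SQSTM1, the receptor p62, ran from 138 ± 12.7 CPM (SD, n = 3) in uninduced stressed cells to 184 ± 18.8 in control cells at low ERN2. MAP1LC3B, the LC3B protein, ran from 103 ± 14.4 in uninduced stressed cells to 148 ± 23.4 at high ERN2 with stress. ULK1, the kinase that starts autophagy, was highest in control cells at low ERN2 (148 ± 19.0) and lowest in stressed cells at high ERN2 (93.7 ± 27.8), where replicate 1 was at 126 and replicates 2 and 3 at 80.0 and 75.3 CPM. BECN1, the PI3 kinase scaffold, kept to 68.6 ± 0.964 to 79.9 ± 5.51, and the ubiquitin-like ATG12 to 53.1 ± 6.55 to 80.8 ± 3.89 CPM (SD, n = 3 each). For ULK1 the log2 fold change at high ERN2 was 0.076 in control cells and -0.054 in stressed cells, and both signs turned once a trend on GC content was removed, to -0.059 and 0.17.

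The members differ in base composition, from 34.8% GC in the longest transcript of ATG4C to 64.75% in that of ATG4D, and the libraries did too. The index of a library was the median log2 deviation of the genes in the lowest quartile of GC content minus that of the highest quartile. It ran from -0.66 in Low ERN2, control replicate 3 to 0.90 in High ERN2, stress replicate 3. High ERN2, stress replicate 1 was at -0.122, and its mates, replicates 2 and 3, at 0.629 and 0.898. Low ERN2, control replicate 1 was at -0.0433, and its mates at -0.607 and -0.659. Fits that left out either replicate 1 thus rested on mates with indices far from 0. In low ERN2 control cells the members' log2 fold changes went up with GC content (Spearman's rho 0.736 over 35 genes, 0.678 over 14106 genes), with an index 0.602 lower than in uninduced cells. In the thapsigargin response at high ERN2 they went down (-0.676, and -0.552 over all), and in uninduced cells the relation was weak (0.192 and 0.143). Over the members rho was 0.509 for high ERN2 in control and -0.477 in stressed cells. It was -0.499 for thapsigargin at low ERN2 and 0.474 for low ERN2 in stressed cells. For the interactions it was -0.734 at low and -0.698 at high ERN2. These are descriptions across genes that share libraries. Of the 8 members that passed without Low ERN2, control replicate 1, the 5 lower ones have 48.03% GC or less and the 3 higher ones 58.04% or more. Of the 7 that passed for thapsigargin at high ERN2 without stress replicate 1, the 4 higher ones have 48.03% or less and the 3 lower ones 54.2% or more. Of the 7 that passed for high ERN2 in stressed cells without that library, the 5 higher ones have 50.44% or less. ATG9A and WIPI2, the lower ones, have 54.2% or more. The 3 that passed in the interaction at high ERN2 without it were all higher, with 50.44% or less. The part of GC content in these calls was not tested. With the trend on GC content removed, WIPI1 (log2 fold change 1.76, adjusted p = 0.000115, edgeR) and GABARAPL1 (0.52, adjusted p = 0.000691) passed in uninduced cells. At high ERN2, WIPI1 (0.87, adjusted p = 0.000414) and ATG9A (-0.76, adjusted p = 2.06e-06) passed in control cells, and ATG9A (-0.91, adjusted p = 2.21e-05) in stressed cells. Further members passed only with the trend removed. In uninduced cells UVRAG was higher and ULK1, ATG4A and GABARAP lower with thapsigargin, 6 members in all. At high ERN2, ATG13 was higher and GABARAP lower in control cells, 4 in all. In stressed cells AMBRA1, ATG2A, MAP1LC3B and ATG4A were higher and WIPI2 lower, 6 in all. "Only" here is beside edgeR's test as reported.

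**Figure D4:**
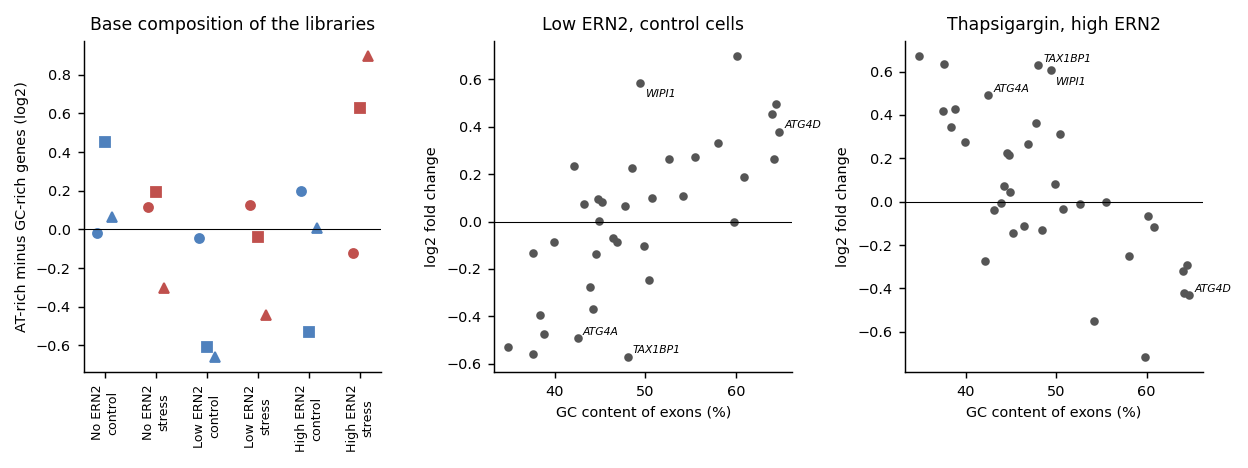
Left, the base composition index of each library by group in log2 units, blue for vehicle, red for thapsigargin, with circle, square and triangle for replicates 1, 2 and 3. Centre and right, log2 fold change against GC content in percent for the 35 genes, going up with GC content at low ERN2 (rho 0.736) and down in the thapsigargin response at high ERN2 (rho -0.676). GC content, labelled as that of exons, is that of each gene's longest transcript.

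A further 34 genes of the pathway that are not among the 35 were counted for context. Thapsigargin in uninduced cells raised 3 of them and lowered 4, where 11.2% of all genes passed. TMEM41B, an ER lipid scramblase needed for autophagosome growth, was at 52.3, 55.8 and 44.8 CPM in control and 99.6, 99.6 and 91.6 CPM in stressed libraries (log2 fold change 0.94, adjusted p = 0.000131, edgeR). The lysosomal transcription factor MITF (0.88, adjusted p = 0.00128) and the ULK complex subunit ATG101 (0.67, adjusted p = 0.00336) were the other two that rose, and TFEB, TFE3, FOXO1 and FOXO3 did not pass. EI24, an ER protein of the pathway, fell (-0.69, adjusted p = 0.000447), as did the mitophagy receptor FUNDC1 (-0.69), the fusion SNARE VAMP8 (-0.65) and the ER-phagy receptor RTN3 (-0.56). TMEM41B, MITF and EI24 passed in 6 of 6 fits leaving out a library, ATG101 and FUNDC1 in 5, and VAMP8 and RTN3 in 2.

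The genes of this second list that are named at high ERN2 were picked out after their values were seen. In control cells 1 of the 34 rose (WDR45, a WIPI family member, 0.69, adjusted p = 0.00354) and 5 fell, 3 of them ER-phagy receptors out of 6 listed, where 8.33% of all genes passed and 1082 of the 1203 calls were lower. RETREG1, a receptor for ER sheets, was at 5.36, 5.41 and 6.06 CPM against 12.4, 15.4 and 12.7 CPM (log2 fold change -1.27, SE 0.158, adjusted p = 0.000116). TEX264, another ER-phagy receptor, was at 10.8, 18.7 and 14.5 against 31.4, 28.95 and 34.1 CPM (-1.10, SE 0.179, adjusted p = 0.00101). EI24 (-0.92), RTN3 (-0.65) and VMP1 (-0.62), all ER membrane proteins, were the other three. In stressed cells, where 10.5% of all genes passed, RETREG1 (-2.02, adjusted p = 4.93e-05), TEX264 (-1.47, adjusted p = 8.69e-05), EI24 (-0.81) and TMEM41B (-0.63) fell and FUNDC1 (0.998) rose. RETREG1 and TEX264 passed under all 14 alternatives in both comparisons. EI24 passed in 6 and 3 of the 6 fits leaving out a library, and TMEM41B and FUNDC1 in stressed cells in 1 each, that without High ERN2, stress replicate 1 (adjusted p = 0.00161 and 4.98e-06).

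**Figure D5:**
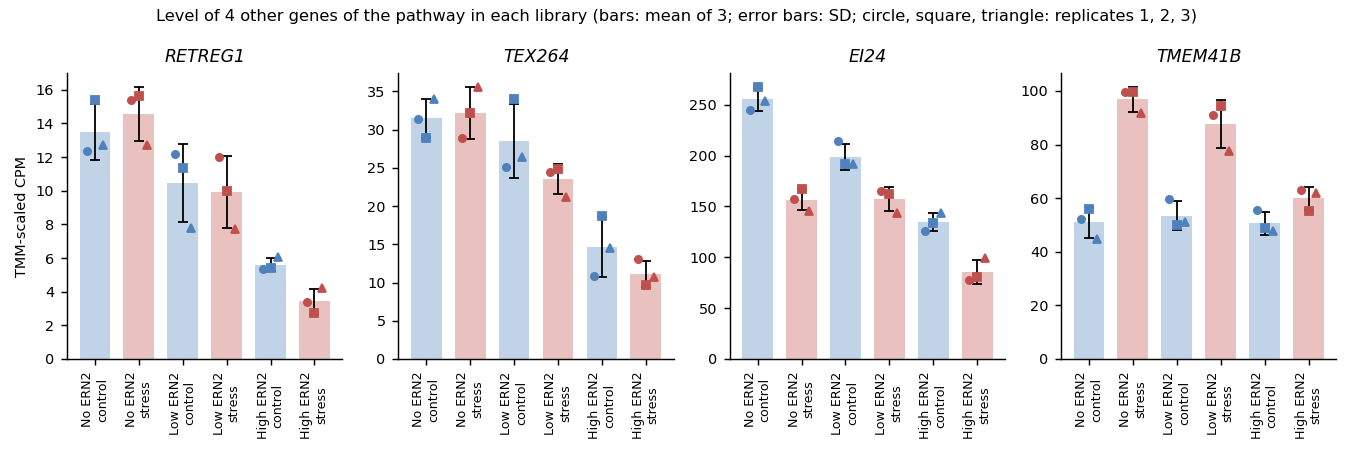
TMM-scaled CPM of RETREG1, TEX264, EI24 and TMEM41B in all 18 libraries by group, with blue for vehicle and red for thapsigargin, bars for the mean and error bars for the SD of 3 libraries. RETREG1 and TEX264 are lowest in both high ERN2 groups, and TMEM41B is high with thapsigargin in uninduced and low ERN2 cells.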

How the data were processed

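RNA from 18 libraries of HEK293doxERN2 cells was prepared with a KAPA stranded mRNA kit and sequenced as single-end reads over 75 cycles. The authors ran the VIPER pipeline with STAR as aligner and deposited raw read counts per gene symbol. The labels name hg38. The annotation and strand setting are not given in the sources used here. In 28 rows a symbol had become a date. Groups and replicate numbers came from the sample titles.

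Each comparison used only its own groups. In R 4.3.3, edgeR 4.0.16 was run on the counts with TMM factors and its quasi-likelihood test, after filterByExpr had dropped low genes (min.count 10). P-values were adjusted over all genes by Benjamini-Hochberg and the study's threshold of 0.01 was used. SE was taken as |log2 fold change| over the root of F. CPM were scaled by TMM over all 18 libraries. With 3 libraries a side, the smallest p of an exact permutation test is 0.1. Tests were checked on simulated counts, drawn independently for each library. These held no trend on GC content, no deviant library and no replicate pairing, so the check does not cover such features. The members and lists were chosen with earlier results of these data known. Members past the threshold were named with statistics. Of the 7 readout genes, BECN1 and ATG12 were given by level only, and the rest also by their changes in some comparisons. The other members were given mainly by range. RUBCN and RETREG1 were matched by older symbols.

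Alternatives were RLE size factors, DESeq2 1.42.0, no filter, all 6 groups in 1 fit, a replicate block, and each library left out. Library totals only, and removal of a trend on GC content (span 0.3) with and without the block, were added after seeing the data. GC content was that of a gene's longest transcript in GENCODE 29, for 97.1% to 97.3% of genes tested, and promoters came from RefSeq. Replicate numbers paired libraries in the comparison of low and no ERN2 in stressed cells, where deviations from the group means of same-numbered libraries correlated at 0.401, 0.343 and 0.467. Figures were drawn with matplotlib 3.10.9.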

Additional observations from a re-analysis of the deposited data

How the results depend on the processing

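The 9 counts of members called and 24 further gene values were recomputed under each alternative. With each library left out, the members called ranged from 1 to 2 for thapsigargin in uninduced cells, 0 to 1 at low ERN2 and 0 to 7 at high ERN2, and from 0 to 8 for low ERN2 in control cells, 1 to 2 for high ERN2 in control cells, 1 to 7 for high ERN2 in stressed cells and 0 to 3 for the interaction at high ERN2. The highest counts were those without High ERN2, stress replicate 1 or Low ERN2, control replicate 1. DESeq2 called 5, 2 and 1 members for thapsigargin without, with low and with high ERN2, and 1 and 4 for low ERN2 in control and high ERN2 in stressed cells. A replicate block gave 10 and 9 for thapsigargin without and with low ERN2, 0 and 2 for high ERN2 in control and stressed cells, and left the other 5 counts at 0. Apart from low ERN2 in stressed cells, whether same-numbered libraries belong together was not settled, and the tests as reported used no block. Between control and stressed cells, deviations of same-numbered libraries correlated at 0.0825, 0.204 and 0.272 without ERN2, where 5 of 6 libraries correlated best with their own number. The correlations were 0.499, -0.0332 and 0.439 at low and -0.341, -0.115 and 0.289 at high ERN2. With the GC trend removed the counts were 6 and 1 for thapsigargin without and with high ERN2, and 4 and 6 for high ERN2 in control and stressed cells. With the GC trend removed and the block, 11 and 6 passed for thapsigargin without and with low ERN2 and 4 for high ERN2 in stressed cells. No filter gave 2 for low ERN2 in control and 3 for high ERN2 in stressed cells. All 6 groups in 1 fit gave 2 for thapsigargin at high ERN2, and 1 and 3 for high ERN2 in control and stressed cells. Over all genes, counts ran from 731 to 4237 (1611 in the test as reported), 28 to 3600 (212) and 4 to 2568 (29) for thapsigargin without, with low and with high ERN2, 0 to 2743 (28) and 749 to 2030 (1203) for low and high ERN2 in control cells, 0 to 544 (0) and 763 to 3950 (1512) in stressed cells, and 0 to 2 (0) and 2 to 1286 (6) for the interactions. The cause of these changes was not tested.

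Of 336 gene values, 300 kept direction and side of the threshold, 14 lost and 10 gained a call and 12 changed sign, none of them called. In stressed cells at high ERN2, GABARAPL1 went to -0.031 (all 6 groups), -0.035 (library totals) and -0.060 to 0.082 without a library, WIPI1 to between -0.50 and 0.12 without a library, and ULK1 to 0.1676 and 0.1657 (GC trend removed, without and with the block) and -0.30 to 0.071 without a library. In control cells ULK1 went to -0.0585 and -0.06 (GC trend removed, without and with the block) and -0.057 to 0.14 without a library. Precision was limited by the spread of 3 libraries more than by counts.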
